A study of Mus musculus with 2 samples.

Results

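Actg2-high smooth muscle cells were studied in single cells sorted from the superficial cervical lymphatic system of the mouse, the vessels that carry lymph to the submandibular nodes. They were 88 of 14300 cells: 61 of 7308 in the adult library and 27 of 6992 in the aged library. Members were selected on measured values of a few genes. A cell had to show Myh11, Acta2 and Tagln, no Pdgfra, and an Actg2 value of at least 1.5 on the deposited scale, the natural log of 1 plus the unique molecular identifiers (UMIs, each a captured RNA molecule) of the gene per 10000 UMIs of the cell. Cells that met the same rule with an Actg2 value under 1.5 are called Actg2-low here. There were 189 of them in the adult and 170 in the aged library.

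The adult library pooled 6 mice aged 12 weeks and the aged library 6 mice aged 93 weeks, per the labels. All mice were of the FVB/N strain and of the Prox1-GFP genotype, in which green fluorescent protein reports the promoter of Prox1, a factor of lymphatic endothelium. The cells were sorted by flow cytometry and captured in droplets, and RNA was read from its 3′ end. The sort gate is not given in the sources used here, and nothing in the tables ties a cell to a mouse, so each age had 1 sample. No test between ages was possible, no p-value is given, and all 95% intervals cover counting error only, not the differences between mice, libraries or cells.

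Actg2 encodes the gamma actin of smooth muscle, best known from the gut, bladder and uterus, while Acta2 encodes the alpha actin that dominates in most blood vessels. Muscle cells around collecting lymphatic vessels contract in rhythm to move lymph, and they combine features of vascular muscle with a fast pacemaker. Contractile genes of smooth muscle are known targets of serum response factor (SRF) and its partner myocardin, and several matrix and cytoskeletal genes answer to the same factors or to the stretch-sensitive regulators YAP and TAZ.

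The libraries shared cells, and this was settled before any comparison. Of the 7308 adult barcodes, 6977 (95.5%) also stood in the aged table. Those aged copies were dropped and each shared cell was counted once, as adult. Of the 61 adult members, 53 had such a copy, at a median of 3844 UMIs against 7451 in the adult table. In their copies 51 of the 53 still met the whole rule, and the other 2 were muscle cells below the Actg2 cut. The aged table numbers its rows without gene names, so genes were named by the adult row order. Over the shared cells Actg2 correlated at 0.95 with itself under this order (Pearson's r, a description over cells that share their molecules).

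The Actg2 values that chose the cells were 1.55 at the lowest, 2.57 at the median and 4.87 at the highest in the adult library, and 1.59, 2.64 and 4.05 in the aged one. These correspond to between 2 and 87 Actg2 UMIs per adult cell (median 8) and between 1 and 35 per aged cell (median 7). Within 0.25 of the cut, 4 adult and 4 aged cells lay just inside and 7 adult and 5 aged cells just outside. The highest value outside was 1.48 in the adult and 1.49 in the aged library. Actg2-low cells mostly had no Actg2 at all: 173 of 189 adult and 161 of 170 aged ones were at 0. The class is a range cut from a score, not a type.

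Actg2 was scarce in the classes counted besides muscle cells, which were fibroblast-like and pericyte-like cells. Endothelial cells were not counted. Fibroblast-like cells, here cells with Pdgfra and without Myh11, had an Actg2 UMI in 0.678% of 5455 adult and 0.25% of 5592 aged cells, at median depths of 13401 and 12539 UMIs per cell. Members had median depths of 6894 and 6216 UMIs and Actg2-low cells 6116 and 5563.5. Cells with Rgs5 and Kcnj8 and with neither Myh11 nor Pdgfra, called pericyte-like by rule, held no Actg2 UMI: by the limit of 3 counts, 0 of 18 adult cells allows a share of cells with a UMI of up to 16.7%, and 0 of 19 aged cells up to 15.8%.

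Markers of other cells were counted in the members. None of the 88 had Ptprc, the leukocyte antigen, and 4 of 10 immune markers were found in adult and 3 of 10 in aged members. Lymphatic endothelial markers summed to 0 per 10000 UMIs at the median in both libraries, with highest cells at 87.4 in the adult and 3.68 in the aged library, and Flt4, Ccl21a and Reln at 0 in both. Fibroblast markers other than Pdgfra summed to a median of 20.2 (2.45 to 129) in adult and 17.5 (1.39 to 184) in aged members, against 4.27 and 5.50 in Actg2-low cells. Salivary and epithelial markers were at 0 in all 61 adult members, which allows a share of cells with a UMI of up to 4.92%, while 19 of 27 aged members had a UMI of at least 1 of the 11. In Actg2-low cells this was 0 of 189 and 107 of 170. The part of these RNAs in the results below was not tested.

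Actg2-high cells made up a smaller share of the muscle cells of the aged library. They were 61 of 250 cells with Myh11, Acta2 and Tagln and without Pdgfra in the adult library (24.4%, exact Clopper-Pearson interval 19.2 to 30.2%), and 27 of 197 in the aged library (13.7%, 9.23 to 19.3%). The intervals overlapped by a narrow margin. Cells were called female by Xist without Y-linked UMIs and male by the reverse. Among female cells the share was 19 of 97 (19.6%, 12.2 to 28.9%) in the adult and 7 of 85 (8.24%, 3.38 to 16.2%) in the aged library. Among male cells it was 30 of 111 (27.0%, 19.0 to 36.3%) and 15 of 82 (18.3%, 10.6 to 28.4%). The aged share was lower within both sexes, with wider and overlapping intervals. Of all cells, members were 0.835% (0.639 to 1.07%) and 0.386% (0.255 to 0.561%). The dissection and the sort can set these shares. With the aged copies of adult cells kept in, the aged share was 19.9%, since the copies carry the adult share with them.

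**Figure D1:**
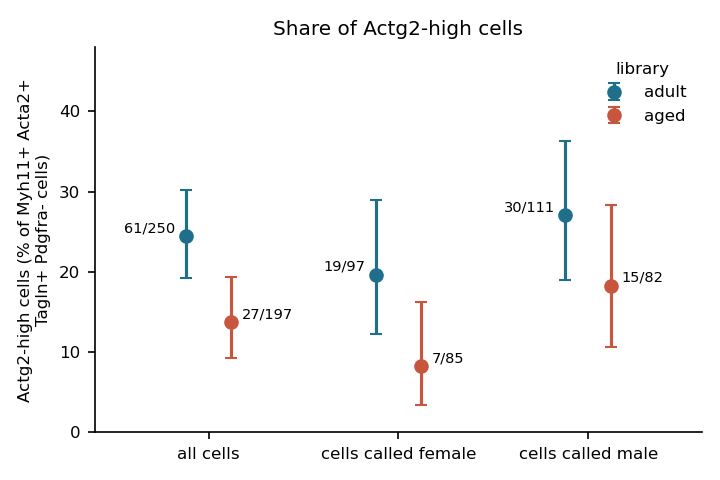
Actg2-high cells as a percent of the Myh11+ Acta2+ Tagln+ Pdgfra- cells (y axis) in all cells and in cells called female or male (x axis), for the adult and aged libraries, with exact 95% Clopper-Pearson intervals as bars and the cell counts beside each point. The aged point lies below the adult point in each of the 3 sets, at 13.7% against 24.4% in all cells, and the intervals overlap.

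The next comparison asked which genes set Actg2-high cells apart from Actg2-low cells. UMIs were summed over the cells of a class and library and given as CPM, counts per 1000000 UMIs of that sum. A gene counted as measured where at least 10% of the cells on either side of a comparison had a UMI and both sides together held at least 50 UMIs. Of 3694 genes measured in both libraries, 93 (2.52%) were at least 2-fold higher in Actg2-high cells in both libraries and 196 (5.31%) at least 2-fold lower. The typical gene was slightly lower in Actg2-high cells, with a median log2 ratio of -0.11 in the adult and -0.13 in the aged library. With the median set to 0 the counts were 128 higher and 156 lower. Log2 ratios were taken after adding 1 CPM, which understates the ratios of low genes.

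The genes ranked highest beside Actg2 itself were cytoskeletal, matrix and receptor genes. Prlr, the prolactin receptor, stood at 847 CPM in adult and 203 CPM in aged members against 16.7 and 21.6 CPM in Actg2-low cells, log2 ratios of 5.58 (5.03 to 6.37) and 3.17 (2.41 to 4.08). Frmpd4, a scaffold protein known from synapses, stood at 487 and 287 CPM against 24.6 and 20.6. Prlr and Frmpd4 had larger ratios in the adult library. Sgcd, the delta sarcoglycan of the muscle membrane complex, stood at 445.5 and 264 CPM against 47.7 and 26.7. Npnt, nephronectin, an integrin ligand of basement membranes, stood at 295 and 174 CPM against 17.5 and 20.6. Fblim1, an adaptor of focal adhesions, had log2 ratios of 2.98 and 2.68, and the adhesion protein Pcdh7 had 2.87 and 2.84. The periostin gene Postn had 2.72 and 2.39. The matricellular gene Ccn1, a known target of YAP, had 2.38 and 2.29. The adenosine kinase gene Adk had 2.28 and 2.42. The calponin gene Cnn1 also ranked here. Some of these genes were present in other cells too. Pericyte-like cells held Postn at 333 and 494 CPM, against 310 and 242 in members. They held Ccn1 at 216 and 333 CPM, against 714 and 326. Fibroblast-like cells held Pcdh7 at 314 and 413 CPM, Adk at 169 and 142 and Ccn1 at 218 and 167. Prlr, Npnt and Cnn1 had no UMI in pericyte-like cells. The part of fibroblast RNA in these ratios was not tested. The 11 genes ranked highest beside Actg2 are called companion genes below and were found by this ranking.

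The genes ranked lowest included Fabp4, which the pericyte-like cells held at 6733 and 8587 CPM. Fabp4, a fatty acid carrier, stood at 15.3 and 45.0 CPM in members against 759 and 695 CPM in Actg2-low cells. Its 7 adult UMIs lay in 3 cells and its 8 aged UMIs in 1 cell. Ppargc1a, a regulator of mitochondrial genes, had 1 UMI in adult members and none in aged members, at least 3.35-fold lower than in Actg2-low cells of the aged library against a floor of 3 counts over the library's members. S100a4, a calcium-binding protein, had log2 ratios of -4.38 and -3.82. Tbx2, a T-box transcription factor, had -3.34 and -3.20. Sntb1, a syntrophin of the same membrane complex as Sgcd, had -3.02 and -3.17. The T-type calcium channel gene Cacna1h had 1 UMI in each library's members, against 42.1 and 52.5 CPM in Actg2-low cells. Gm37800, Rnf152, Abt1, Timp4 and Nrgn had log2 ratios from -5.55 to -2.82. Fabp4, Ppargc1a, Tbx2, Sntb1, Cacna1h, Gm37800 and Rnf152 were each found in under 10% of members and passed the filter only through Actg2-low cells.

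**Figure D2:**
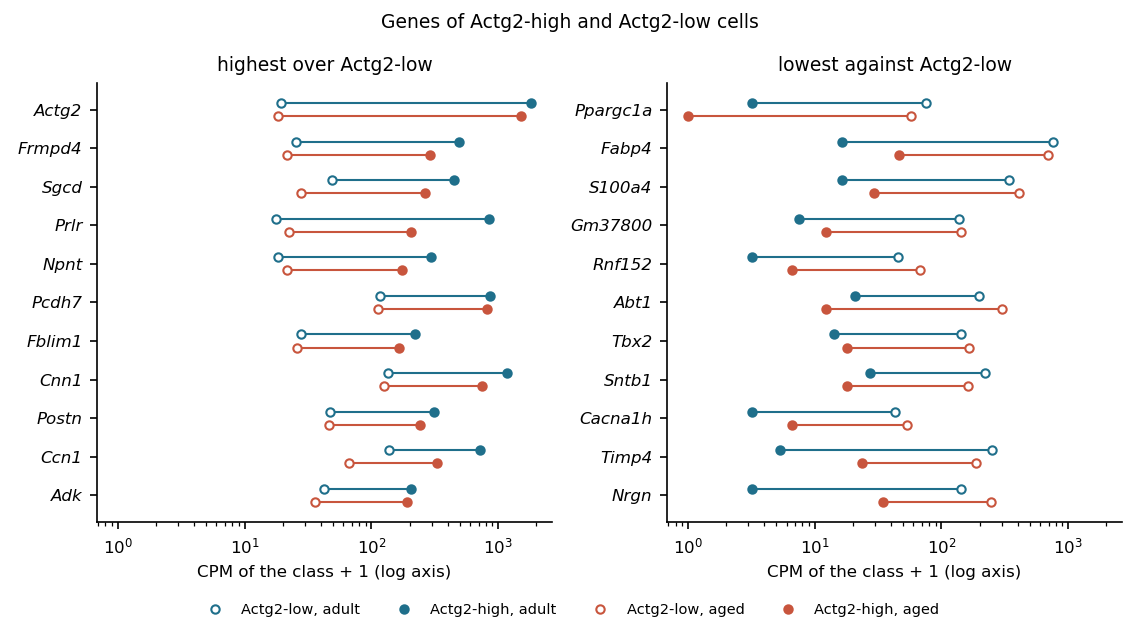
CPM of each class plus 1 on a log axis (x) for 11 of the 12 genes ranked highest (left) and 11 of the 12 ranked lowest (right) in Actg2-high against Actg2-low cells (y); filled points are Actg2-high, open points Actg2-low, and colours are the libraries. Only genes on the same side in both libraries were ranked, so that each gene lies on 1 side was set by the choice. Prlr stood at 847 and 203 CPM against 16.7 and 21.6.

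Among the marker genes proposed for these cells, Actg2 and Acta2 were used by the rule, Cnn1, Tnc and Thbs1 were higher than in Actg2-low cells, and Rgs16 was not higher in the adult library. Cnn1 stood at 1175 CPM in adult members (56 of 61 cells) and 743 CPM in aged members (24 of 27 cells), against 134 and 126 CPM in Actg2-low cells, log2 ratios of 3.13 (2.88 to 3.40) and 2.56 (2.20 to 2.93). Tnc, tenascin-C, a matrix glycoprotein of remodelling tissue, stood at 1029 and 540 CPM against 233 and 90.5. It was unevenly spread: 27 of 61 adult and 9 of 27 aged members had a UMI, and 1 adult cell held 117 of the 471 adult UMIs and 1 aged cell held 42 of the 96 aged UMIs. Among male aged cells its log2 ratio was -0.00664. Thbs1, thrombospondin 1, stood at 1483 and 2172 CPM against 976 and 746. Rgs16, a brake on G protein signalling, stood at 365 and 248 CPM against 413 and 107, log2 ratios of -0.18 (-0.44 to 0.07) and 1.20 (0.67 to 1.73). The pericyte-like cells of the adult library had more Rgs16, 1145 CPM, and without cells of either class that held UMIs of both Rgs5 and Kcnj8 the adult log2 ratio was 1.99. Thinned to 4000 UMIs per cell, with 9 adult and 4 aged members shallower than that left out, Cnn1 was found in 88.5% and 87.0% of members (91.8% and 88.9% unthinned). In thinned Actg2-low cells it was found in 24.3% and 33.1% (28.6% and 31.8% unthinned).

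Contractile genes as a group were modestly higher in Actg2-high cells. Of the 28 listed genes of the contractile apparatus, 24 were not used by the rule, and of these 7 were at least 1.5-fold higher in both libraries and 1 at least 1.5-fold lower, while of all measured genes 6.2% were higher and 11.6% lower by that measure. The median log2 ratio of the 24 genes was 0.37 in the adult and 0.24 in the aged library. Among the genes of the rule, whose values are a description, Acta2 stood at 13559 and 15434 CPM in members against 7599 and 10586 CPM, log2 ratios of 0.84 (0.79 to 0.88) and 0.54 (0.48 to 0.60). Myh11, the smooth muscle myosin heavy chain, differed little, with 0.10 (0.02 to 0.18) and 0.28 (0.18 to 0.38). Tagln, an actin-binding protein, had 0.69 and 0.31. Ppp1r14a, an inhibitor of myosin phosphatase, stood at 1407 and 1390 CPM against 484 and 551, with 1.54 and 1.33. Pdlim3 and Pdlim7, which link actin to its anchors, had 1.49 and 0.95, and 1.26 and 0.90. Csrp1, another cytoskeletal LIM protein, had 1.09 and 0.98. The myosin light chain gene Myl9 had 0.81 and 0.67, and the tropomyosin gene Tpm2 had 0.84 and 0.72. Synm, an intermediate filament protein, was the gene on the lower side, with -2.47 (-3.23 to -1.85) and -0.95 (-1.56 to -0.41).

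Acta2 and Cnn1 were higher in muscle cells with more Actg2, in bins that the rule's own gene defines. Adult cells at an Actg2 value of 0 had 7517 CPM of Acta2, those from 1.5 to under 2.5 had 8783, those from 2.5 to under 3.5 had 13848 and the 9 cells at 3.5 or more had 27667. The aged bins went from 10565 CPM at 0 to 22945 in the 3 cells at 3.5 or more. Cnn1 went from 108 CPM at 0 through 340 below the cut to 2739 in the top adult bin, and from 110 through 336 to 1427 in the aged library. Myh11 showed no such steady course in either library. In the adult library it went from 3698 CPM at 0 through 3298 from 1.5 to under 2.5 to 4878 in the top bin. In the aged library its highest bin was the one below the cut, at 6943 CPM in 9 cells. Kcnj8 was highest in the top bin of both libraries, at 462 and 529 CPM. These were 30 UMIs in 6 adult cells and 10 UMIs in 2 aged cells. Rgs16 was lowest of the 3 member bins in the top one, at 123 and 106 CPM. That rested on 8 UMIs in 1 adult cell and 2 UMIs in 2 aged cells. In the adult library Thbs1 was lower in the top bin than at a value of 0, at 785 against 925 CPM, and in the aged library higher, at 4600 against 734.

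**Figure D3:**
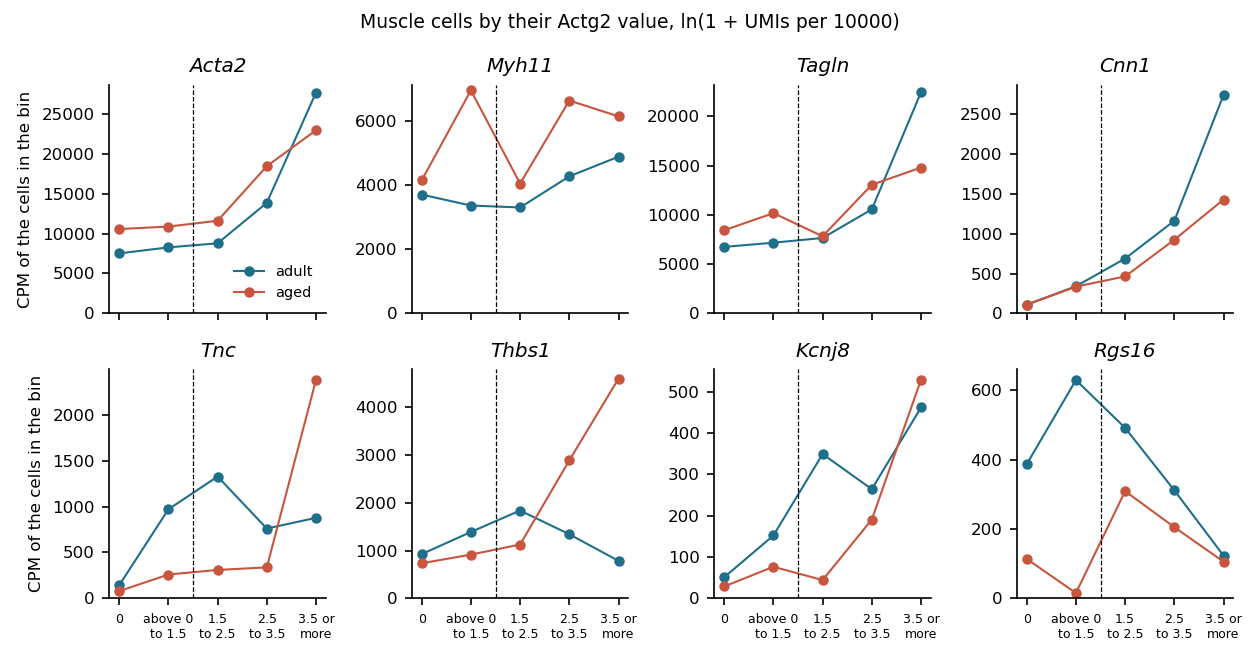
CPM over the cells of a bin (y axis, from 0) for 8 genes in muscle cells binned by their Actg2 value (x axis, natural log scale), with the adult and aged libraries as lines and the cut at 1.5 dashed. Acta2, Tagln and Cnn1 are highest in the top bin of both libraries, Acta2 at 27667 and 22945 CPM; the top bin holds 9 adult and 3 aged cells.

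Promoters of contractile genes are shown because many of them carry the CArG box, the site that SRF binds: CC, then 6 bases that are each A or T, then GG. The RefSeq table of promoters (GRCm38.p6, 250 bases before to 50 bases after each start) held 23 of the 28 contractile genes. Both strands were searched, and the box reads the same in form on either. A box was found in 3 of the 23, Myl6, Myl9 and Vcl, against 1.81% of 27025 genes and 1.63% of 32851 promoters in the table. A looser form with at least 5 of the 6 inner bases A or T, added after the strict form had missed Acta2, was found in 6 of the 23, with Acta2, Pdlim3 and Synm besides, against 11.3% of genes. Of the genes ranked highest beside Actg2, 10 were in the table: none had the strict box and Frmpd4 and Prlr had the looser one. Of the genes ranked lowest, 6 were in the table and Ppargc1a had the looser form. These counts describe letters in this window only. The promoters of Acta2 (chr19:34255324-34255623, minus strand) and Myl9 (chr2:156775214-156775513, plus strand) follow, 5′ to 3′ on the gene's strand, with boxes of either form in capitals. The boxes of Acta2 begin 84 and 34 bases before the start and those of Myl9 161 and 99 bases before it, of which the one at 161 is strict.
Acta2: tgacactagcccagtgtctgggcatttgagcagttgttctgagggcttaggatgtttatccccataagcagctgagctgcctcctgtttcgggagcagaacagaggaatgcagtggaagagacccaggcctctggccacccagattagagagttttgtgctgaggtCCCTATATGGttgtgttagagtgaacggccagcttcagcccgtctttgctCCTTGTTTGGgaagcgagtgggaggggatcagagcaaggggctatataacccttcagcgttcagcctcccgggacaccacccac
Myl9: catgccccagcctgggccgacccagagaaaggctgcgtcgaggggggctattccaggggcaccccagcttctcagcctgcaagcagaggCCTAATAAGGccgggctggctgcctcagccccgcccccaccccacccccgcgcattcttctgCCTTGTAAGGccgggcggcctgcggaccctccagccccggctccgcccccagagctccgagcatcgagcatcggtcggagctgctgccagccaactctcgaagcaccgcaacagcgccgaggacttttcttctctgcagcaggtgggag

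Among regulators of contractile genes the groups parted by gene. Of 9 measured regulators, 1 was at least 1.5-fold higher in both libraries (Barx1, a homeobox factor known from the foregut and stomach) and 3 were lower. The shares over all measured genes were 6.2% higher and 11.6% lower. Barx1 stood at 256 and 191 CPM against 51.7 and 83.3. Notch3, the Notch receptor of mural cells, stood at 301 and 321 CPM against 850 and 910, log2 ratios of -1.49 and -1.50, and its target Heyl (-1.59 and -1.31) and ligand Jag1 (-1.16 and -1.09) lay on the same side. Myocd, myocardin itself, was on opposite sides: 454 against 177 CPM in the adult library, 1.36 (1.08 to 1.64), and 95.7 against 171 CPM in the aged one, -0.83 (-1.65 to -0.11). Gata6, a factor of differentiated smooth muscle, did not pass the filter for this comparison, at 133 and 39.4 CPM in members against 18.3 and 6.17.

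Calcium-handling genes of the pacemaking list leaned to Actg2-low cells. Of 17 measured, none was at least 1.5-fold higher in both libraries and 8 were lower, with list medians of -1.29 and -0.87. By the same measure 6.2% of all measured genes were higher and 11.6% lower. Cacna1h, with 1 UMI in each library's members, passed the filter on low genes only through Actg2-low cells. In the adult library Pln, Cacna1g and Gja4 did so too. Adult members held 3 UMIs of Pln in 1 cell and 1 UMI of Cacna1g. Of Gja4 they held 1 UMI in the top cell and 2 in the others. Genes that pass in this way can hardly count as higher, so the counts of this list are a description only. Phospholamban, encoded by Pln, the brake on the calcium pump of the reticulum, stood at 6.55 and 197 CPM in members against 315 and 404. Cacnb2, a calcium channel beta subunit, stood at 190 and 281 CPM against 549 and 514, and the connexin gene Gjc1 at 124 and 158 against 305 and 335. The T-type channel gene Cacna1g, the ryanodine receptor gene Ryr2, the sodium channel gene Scn3a and the connexin gene Gja4 were also lower in both. Ano1, Cacna1c and Itpr1 were not among them. Ano1, the calcium-activated chloride channel of the lymphatic pacemaker, stood at 330 and 203 CPM against 160 and 182, log2 ratios of 1.04 (0.73 to 1.36) and 0.15 (-0.41 to 0.68). The L-type calcium channel gene Cacna1c had 0.30 and -0.10, and the IP3 receptor gene Itpr1 -0.19 and -0.44.

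Potassium channel genes were split: of 11 measured, 2 were at least 1.5-fold higher in both libraries and 3 lower. All measured genes gave shares of 6.2% higher and 11.6% lower. The subunits of the ATP-sensitive channel, Kcnj8 (the pore) and Abcc9 (the sulfonylurea receptor), were both higher. Kcnj8 stood at 330 and 152 CPM against 62.0 and 31.9, log2 ratios of 2.39 (2.01 to 2.82) and 2.22 (1.45 to 3.04). Abcc9 stood at 459 and 236 CPM against 130 and 104, with 1.82 and 1.18. Both genes are also pericyte markers, and the pericyte-like cells had 1009 and 643 CPM of Kcnj8 and 1190 and 1642 CPM of Abcc9. Of all 10 pericyte markers, these 2 were at least 1.5-fold higher in both libraries and 6 were lower. A UMI of both Rgs5 and Kcnj8 was found in 16 adult and 7 aged members. Kcnma1, the large-conductance calcium-activated channel, had 1.53 (1.23 to 1.84) in the adult and 0.21 (-0.43 to 0.81) in the aged library. Kcnab1, a beta subunit of voltage-gated channels, stood at 98.3 and 197 CPM against 751 and 784, and Kcna5, a voltage-gated channel, was lower as well. Kcna5 had 0 UMIs in adult members, and in aged members 3 UMIs in 1 cell and 1 UMI besides. It passed the filter on low genes only through Actg2-low cells. Of 7 measured vasoactive receptor and cyclic GMP genes, 0 were higher in both libraries by 1.5-fold and 2 were lower, Avpr1a and Gucy1a1. Avpr1a had 1 UMI in adult members and passed the filter in that library only through Actg2-low cells. The same shares over all measured genes apply.

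Among the gene lists, the matricellular list had the largest share on the higher side. Of 8 measured matricellular genes, 6 were at least 1.5-fold higher in both libraries (Tnc, Tnxb, Thbs1, Postn, Ccn1 and Ccn2) and 1 lower (Sparcl1), with list medians of 1.25 and 1.92. Tnc and Thbs1 are markers proposed for these cells, and Postn and Ccn1 are companion genes ranked in them, so the count is a description only. Of all measured genes, 6.2% were higher and 11.6% lower by that measure. Ccn2 rested on 1 aged cell that held 14 of its 22 aged UMIs, and without that cell its aged ratio was -0.32. Of 28 measured genes of matrix and basement membrane, 9 were higher and 6 lower. The interstitial collagen gene Col3a1 stood at 701 and 878 CPM against 208 and 247, log2 ratios of 1.75 and 1.83. The laminin gene Lama4 stood at 485 and 264 CPM against 98.6 and 91.6, and the integrin gene Itga1 at 651 and 636 against 308 and 303. The collagen IV genes Col4a1 and Col4a2, main chains of basement membrane, were on the lower side, Col4a1 at 164 and 253 CPM against 400 and 559. The sum of fibroblast markers given above was also higher in members at the median, but single fibroblast genes differed between the libraries. Of 8 measured fibroblast markers, 3 were at least 1.5-fold higher in both libraries and 0 lower. The median log2 ratio of these markers was 0.23 in the adult and 2.996 in the aged library. Pi16 and Clec3b, abundant in fibroblast-like cells, had -2.12 and -1.86 in the adult and 3.996 and 3.49 in the aged library. The part of fibroblast RNA in the collagen ratios was not tested. Of the listed targets of YAP and SRF, 14 were measured, with 4 higher and 2 lower. Fhl1, a LIM protein of muscle, had 2.13 and 2.61. Among the inhibitor of differentiation genes, Id4 stood at 878 and 619 CPM against 266 and 212 and Id2 at 533 and 298 against 140 and 119, while Id1 was lower. The ephrin receptor gene Epha3 stood at 271 and 146 CPM against 34.2 and 35.0.

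Members were not alike. The number of the 11 companion genes with a UMI in a cell ranged from 1 to 11 in adult members (median 8) and from 0 to 11 in aged members (median 6), against a median of 1 in the Actg2-low cells of both libraries. At least 4 companions were found in 58 of 61 adult and 19 of 27 aged members. The 8 aged members with at most 3 companions held all 35 Pln UMIs, 46 of 47 Tesc UMIs and 100 of 102 Sorbs2 UMIs of the aged members, and Cnn1 stood at 485 CPM in them against 854 in the other 19. More of the 12 genes ranked lowest than companion genes were found in 6 aged members and 1 adult member. The gene of the calcium-binding protein tescalcin, Tesc, and the adaptor gene Sorbs2 are both abundant in Actg2-low cells, at 520 and 640 CPM and at 908 and 1011 CPM. Of the 8 cells, 7 were called male and 1 had no call; the 3 adult members with few companions were all called male. Median Actg2 values were 2.15 in the 8 cells and 2.94 in the 19. Since companion genes were ranked in these same cells, the counts describe how unlike the members are and support nothing further.

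Companion genes also appeared without Actg2. Of all muscle cells, 81 of 250 adult (32.4%, 26.6 to 38.6%) and 32 of 197 aged cells (16.2%, 11.4 to 22.2%) had at least 4 of them whatever their Actg2. Of these, 58 and 19 were members, 14 and 11 were at an Actg2 value of 0, and 9 and 2 lay between 0 and the cut. Most of the cells counted are the members in which these genes were ranked, so the shares largely restate the rule.

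**Figure D4:**
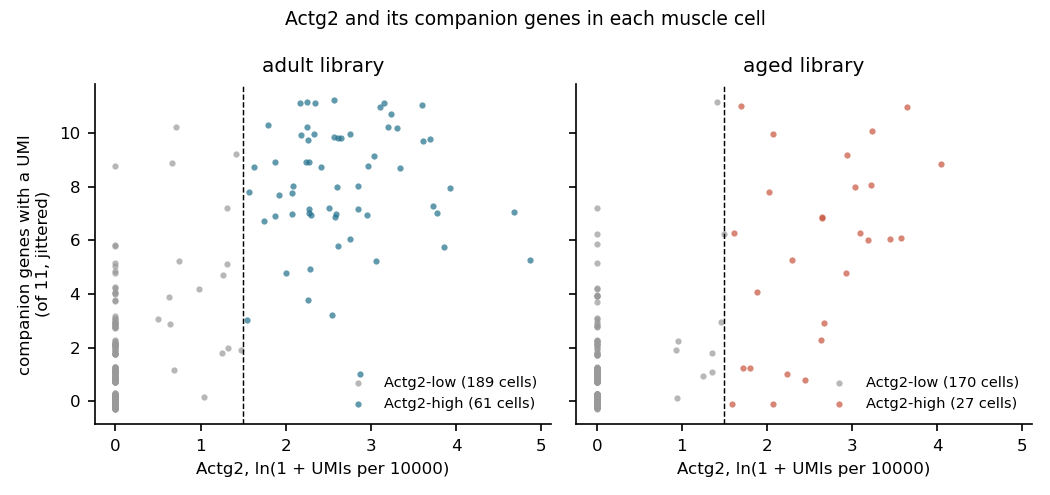
Each point is a muscle cell, with its Actg2 value (x axis, natural log of 1 plus UMIs per 10000) and the number of the 11 companion genes with a UMI (y axis, jittered by up to 0.3), in the adult (left) and aged (right) library; coloured points are Actg2-high and the dashed line is the cut at 1.5. Most adult members lie at 4 or more companions (58 of 61), while 8 of 27 aged members lie at 3 or fewer.

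The comparison of ages within Actg2-high cells rested on 457864 adult and 177721 aged UMIs. Of 2238 genes measured, 138 (6.17%) were at least 2-fold higher in the aged library and 162 (7.24%) at least 2-fold lower, with a median log2 ratio of -0.01 over all of them. At 1.5-fold these shares were 13.7% and 18.1%. Many of the extreme values came from a few cells, so each is given with the cells behind it.

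The genes ranked lowest in the aged library were detected in many adult and few aged members, and several passed the filter on low genes only through the adult library. Grem1, a secreted antagonist of bone morphogenetic proteins, had 257 UMIs in 28 of 61 adult members (561 CPM) and 8 UMIs in 2 of 27 aged members (45.0 CPM), a log2 ratio of -3.61 (-4.87 to -2.64). It was nearly absent from Actg2-low cells, at 3.98 and 5.14 CPM. Frmd5, a cytoskeletal adaptor, had 193 UMIs in 27 adult cells and 3 UMIs in 2 aged cells. Hpse2, which binds heparan sulfate, had 193 UMIs in 23 adult cells and 11 UMIs in 3 aged cells. Foxp2, a forkhead factor, Lurap1l, Adm, the gene of the vasodilator adrenomedullin, and the adhesion molecule gene Icam1 were found in 15 to 28 adult cells and in 1 or 2 aged cells, and the non-coding Gm26802 in 26 and 1. The aged UMIs of these genes are few, and their intervals are wide. Other genes of the lower end rested on few adult cells. Of the 129 adult UMIs of Prox1, 125 lay in 1 cell, which also carried the highest sum of lymphatic endothelial markers; without the top cell of each library the log2 ratio of Prox1 turned from -3.98 to 0.32. Of the 196 adult UMIs of the neurotensin gene Nts, 149 lay in 1 cell. Gm49171 was found in 8 adult and 2 aged cells.

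Most companion genes reported here were lower in the aged library. Prlr went from 847 to 203 CPM, a log2 ratio of -2.06 (-2.60 to -1.57), with a UMI in 45 of 61 adult and 7 of 27 aged members. Ccn1 had -1.13 (-1.56 to -0.72). Cnn1 had -0.66 (-0.95 to -0.38). Frmpd4 had -0.76 (-1.23 to -0.32), Sgcd -0.75 (-1.24 to -0.29) and Npnt -0.75 (-1.37 to -0.19). Pcdh7 (-0.08), Postn (-0.36), Fblim1 (-0.43) and Adk (-0.10) had intervals that included 0, and in the members with at least 4 companions Adk had 0.31, Postn 0.17, Fblim1 -0.03 and Pcdh7 0.39 (0.11 to 0.67). Actg2 itself, which chose the cells, had -0.28 (-0.48 to -0.08). In the members with at least 4 companions Prlr had -1.61 (-2.15 to -1.12), Cnn1 -0.52 and Actg2 -0.05. Those members were chosen for UMIs of companion genes, and every gene here but Actg2 is a companion. Companion values in those members are thus partly set by the choice of cells, and no conclusion is drawn from them.

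The core of the contractile apparatus was close between ages. Of 22 measured contractile genes that the rule did not use, 1 was at least 1.5-fold higher in the aged library (Flna) and 4 lower, among them Cnn1, Lmod1 and Synpo2, with a median log2 ratio of -0.09. The lower share was near that over all measured genes, of which 13.7% were higher and 18.1% lower. Acta2 had 0.19 (0.12 to 0.25), Myh11 0.42 (0.31 to 0.54) and Tagln -0.05 (-0.13 to 0.03). In members with at least 4 companions Acta2 had -0.03 and Myh11 0.003. Lmod1, leiomodin, which nucleates actin filaments, had -0.90 (-1.26 to -0.56). Synpo2, an actin-bundling protein of the dense bodies, stood at 1295 CPM in adult and 681 CPM in aged members. Desmin, encoded by Des, the intermediate filament of muscle, had -0.28 over all members, but 75 of its 90 aged UMIs lay in the 8 aged cells with few companions. In the members with at least 4 companions its level was 630 CPM in adult and 121 CPM in aged cells, -2.37. Myocd had 208 UMIs in 38 adult members and 17 UMIs in 7 aged members, -2.24 (-3.05 to -1.53), against -0.05 in Actg2-low cells. Gata6 had -1.73 (-3.13 to -0.63). The pluripotency and injury factor Klf4 was higher in the aged library, at 819 and 1373 CPM.

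Some potassium channel genes were lower in aged members, and pacemaking genes were divided, with 2 of 8 at least 1.5-fold higher and 2 lower. By that measure 13.7% of all measured genes were higher and 18.1% lower, and both lists are short. Of 5 measured potassium channel genes, 1 was at least 1.5-fold higher and 3 lower, with a median of -0.95 in members and -0.05 in Actg2-low cells. Kcnma1 had -1.37 (-2.00 to -0.80), Kcnj8 -1.11 (-1.77 to -0.52) and Abcc9 -0.95 (-1.47 to -0.47). In the members with at least 4 companions Kcnma1 had -2.02 and Kcnj8 -0.77, and Abcc9, at -0.47 (-0.98 to 0.02), no longer passed 1.5-fold. The UMIs of Kcnj8 were in 37 of 61 adult and 14 of 27 aged members. Among female members Kcnj8 had 0.08. Ano1 had -0.70 (-1.27 to -0.17), but -0.13 (-0.71 to 0.42) in the members with at least 4 companions. Cacna1c had -0.64 and, in those members, -0.52 (-0.92 to -0.13), while the calcium pump genes Atp2a2 and Atp2b1 were higher, with 0.65 and 1.22. The endothelin receptor gene Ednra stood at 251 CPM in 49 adult and 113 CPM in 14 aged members, -1.15 (-1.92 to -0.46), against 0.37 in Actg2-low cells. Of the cell's brakes on G protein signalling, Rgs5 was lower (-1.55, -2.08 to -1.06) and Rgs2 higher (1.35, 1.04 to 1.67). Rgs2 was found in 25 of 61 adult and 19 of 27 aged members.

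For most genes ranked highest in aged members, a few cells held most of the aged UMIs. Tesc, Sorbs2 and Vps37b were lower in members than in Actg2-low cells of both libraries. Spty2d1 had log2 ratios against Actg2-low cells of -2.19 in the adult and -0.26 (-0.76 to 0.21) in the aged library. The 8 aged members with few companions held 97.9%, 98.0%, 62.5% and 42.9% of the aged UMIs of Tesc, Sorbs2, Vps37b and Spty2d1. A single aged cell held 17 of the 42 aged UMIs of Spty2d1. In the members with at least 4 companions the log2 ratio of Tesc was -0.70 and that of Sorbs2 -1.87, while Vps37b (2.29) and Spty2d1 (2.37) were still higher in the aged library. Pi16, Ly6a, Clec3b, Has1, Gfpt2, Sema3c, Adgrd1 and Adamtsl1 are abundant in fibroblast-like cells, from 359 to 2362 CPM in the adult library. Most of their aged UMIs lay in 3 aged members that had at least 7 of the 9 fibroblast markers other than Pdgfra, 2 of them all 9. Those 3 cells held 60 of the 61 aged UMIs of Pi16, 64 of 65 of Ly6a and 88 of 90 of Gfpt2, and 29 of 40 of Adamtsl1. Without such members the log2 ratio of Pi16 turned from 3.78 to -1.65 and that of Ly6a from 4.01 to -1.21. Of 26 measured matrix genes, 11 were at least 1.5-fold higher in the aged library and 4 lower, against 13.7% and 18.1% of all measured genes. The same 3 cells held 73 of the 87 aged UMIs of Fbn1, 62 of 70 of Fn1 and 75 of 93 of Mfap5. Dcn, a fibroblast proteoglycan, had 236 of its 282 aged UMIs there.

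Of the matricellular and signalling markers, Tnc was lower in aged members, at a log2 ratio of -0.93 (-1.26 to -0.61), and in Actg2-low cells, at -1.35. Thbs1 was higher in aged members, at 0.55 (0.37 to 0.73), and lower in Actg2-low cells, at -0.39 (-0.52 to -0.25). Rgs16 had -0.56 (-1.07 to -0.07) in members and -1.94 in Actg2-low cells, and 0.18 (-0.34 to 0.68) in the members with at least 4 companions. Of 11 measured matricellular genes, 2 were at least 1.5-fold higher in aged members and 5 lower, against 13.7% and 18.1% of all measured genes.

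The metallothionein gene Mt1 stood at 1511 CPM in adult and 3731 CPM in aged members, a log2 ratio of 1.30 (1.15 to 1.46), with a UMI in all 27 aged and in 51 of 61 adult cells, against 0.09 in Actg2-low cells. The orphan receptor gene Nr4a3 had 1.49 (1.20 to 1.79), in 38 adult and 25 aged cells, and the cell-cycle inhibitor gene Cdkn1a 1.07 (0.78 to 1.37), in 39 and 23. The heat shock gene Hspa1a had 245 UMIs in 45 adult cells and 19 UMIs in 10 aged cells, -2.31 (-3.08 to -1.65), and Hspa1b -1.38. Among 21 measured immediate early genes 3 were higher and 5 lower by 1.5-fold, shares near those over all measured genes, 13.7% and 18.1%, with Fos at -1.22 and Jun at -1.14. The chemokine gene Ccl2 stood at 194 CPM in 11 adult and 788 CPM in 12 aged members, 2.01 (1.63 to 2.42), where Actg2-low cells had -3.65 (-4.63 to -2.97), and 63 of its 140 aged UMIs lay in the 3 cells with many fibroblast markers. None of 5 measured class I presentation genes passed 1.5-fold in members. B2m had 0.16 (-0.19 to 0.50) in members and -1.47 in Actg2-low cells. Of 36 measured respiratory chain genes, 2 were higher and 0 lower. Of 8 guidance genes, 2 were higher and 4 lower, among them Slit2, a secreted repellent, at -0.99 (-1.75 to -0.31), and Epha3.

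**Figure D5:**
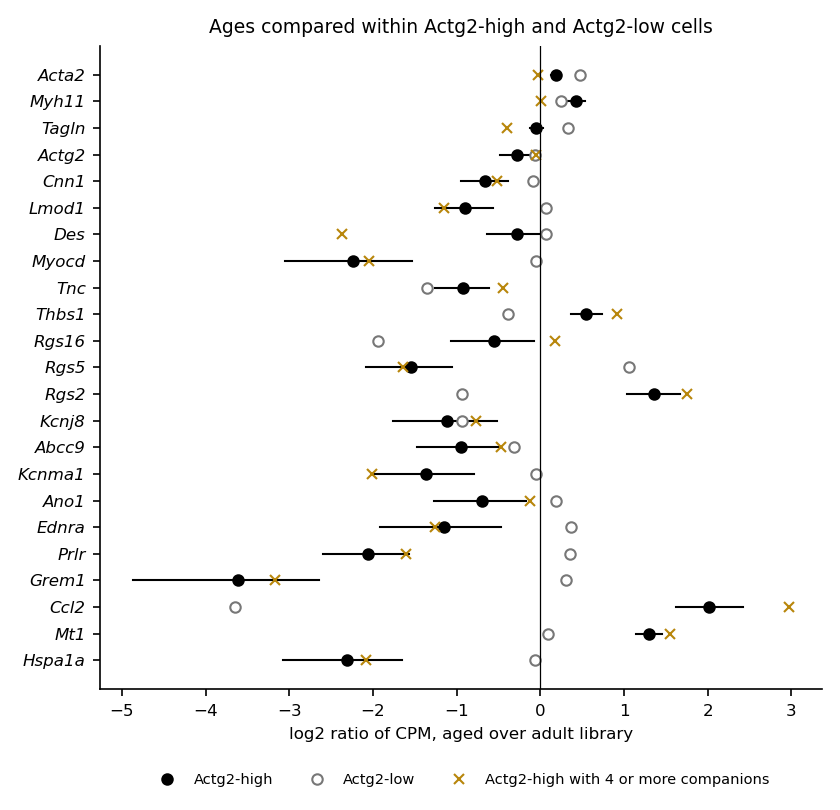
Log2 ratio of CPM in the aged over the adult library (x axis) for 23 genes (y axis): filled points with counting intervals are Actg2-high cells, open points Actg2-low cells and crosses the members with at least 4 companion genes. Prlr and Cnn1 are companion genes, so their crosses are partly set by the choice of cells. Prlr, Grem1, Myocd and Hspa1a lie below -2 in Actg2-high cells and between -0.07 and 0.35 in Actg2-low cells; Thbs1, Rgs5, Rgs2 and Ccl2 lie on opposite sides in the 2 classes.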

How the data were processed

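The cells were measured by droplet 3′ RNA sequencing. The deposited values are natural log values, ln(1 + UMIs per 10000 of the cell), and Seurat 5.0.3 and the builds GRCm39 and mm10 (with no role) are named, per the submitters' processing notes. For the aligner, counting and cell filters: not given in the sources used here. UMIs were recovered from each cell's steps, whole within 0.01, and summed per class and library. Log2 ratios of CPM were taken with 1 CPM added and exact conditional binomial intervals of 2 counts. No doublets were removed. No fit was made, since each age had 1 library. Named genes were the markers, the 12 highest and 12 lowest of each comparison (between ages, those whose interval excluded 0; mitochondrial, haemoglobin and sex-linked genes aside) and members of the gene lists past 1.5-fold or of known role; some are not reported here. The members and lists were chosen with earlier results of these data known. Scripts were tested on simulated data. Python 3.11.15, numpy 2.4.6, scipy 1.17.1, pandas 2.3.3 and matplotlib 3.10.9 were used. Alternatives changed the cut, scaling, filter, depth, sexes and cells kept.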

Additional observations from a re-analysis of the deposited data

Results flagged for a closer look

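Some genes lay on opposite sides between ages in Actg2-high and Actg2-low cells, with counting intervals that excluded 0 in both classes. Those at least 2-fold apart from equal levels in both classes, and the markers, are given here. Rgs2 (1.35 and -0.93) and Ednra (-1.15 and 0.37) also lay on opposite sides, with less than 2-fold in Actg2-low cells. The difference between the classes was not tested, since each age had 1 library. All values are log2 ratios of aged over adult CPM. Rgs5 had -1.55 in Actg2-high and 1.06 in Actg2-low cells, and Thbs1 had 0.55 and -0.39. Ccl2 had 2.01 and -3.65. Gm49171 had -3.52 and 2.09, and Lurap1l -3.52 and 1.17, each on 2 aged UMIs in Actg2-high cells.

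The other genes given here are abundant in fibroblast-like cells. Pi16 had 3.78 and -2.34, Ly6a 4.01 and -1.39, Clec3b 3.11 and -2.24, and Has1 4.203 and -1.35. Gfpt2 had 4.11 and -1.44, Sema3c 3.80 and -2.15, and Adgrd1 3.47 and -1.47. Mfap5 had 1.77 and -2.44, and Dcn 1.01 and -1.74. The 3 aged members with at least 7 fibroblast markers held 60 of 61 aged Pi16 UMIs, 64 of 65 of Ly6a, 41 of 45 of Clec3b, 39 of 46 of Has1, 88 of 90 of Gfpt2, 49 of 51 of Sema3c, 47 of 49 of Adgrd1, 75 of 93 of Mfap5 and 236 of 282 of Dcn.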

How the results depend on the processing

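Over 15 settings, 2170 values of 151 gene results were recomputed: 2135 kept their direction, 14 values of at least 2-fold reversed, 21 smaller ones changed sign, and 425 moved beyond their counting interval, among them 77 of 151 in female cells, 65 in male cells and 53 with all aged cells kept. The smaller ones include Tnc (from -0.93 to 0.56) and Pdlim7 (aged, against Actg2-low cells, from 0.90 to -0.21) in female cells, Des (from -0.28 to 0.77) in male cells, Rgs16 (from -0.56 to 0.18) and Acta2 (from 0.19 to -0.03) in members with at least 4 companions, and Rgs16 against adult Actg2-low cells (from -0.18 to 1.99) without cells with Rgs5 and Kcnj8. Among female cells Tesc (-0.52), Sorbs2 (-6.87) and Kcnj8 (0.084) reversed between ages, and among male cells Tnc against Actg2-low cells of the aged library (-0.00664). The settings that keep members with at least 4 companion genes, drop members with at least 7 fibroblast markers, or drop the top cell of a gene were chosen after seeing the data. In the first, Tesc (-0.70) and Sorbs2 (-1.87) reversed and 300 genes were lower than in Actg2-low cells. In the second, Gfpt2 (-0.87), Ly6a (-1.21), Sema3c (-0.47), Pi16 (-1.65), Adgrd1 (-0.74), Fn1 (-1.46) and Mfap5 (-0.20) reversed. In the third, Prox1 did (0.32).

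With all aged cells as deposited, adult cells included, the aged share was 19.9%, 56 genes were 2-fold higher and 8 lower between ages, and 233 higher and 337 lower than in Actg2-low cells. Without a filter on low genes these counts were 2142, 4819, 756 and 1150. Fewer genes passed the filter in the smaller sets: female cells gave a share of 8.24%, 86 and 87 genes between ages and 37 higher than in Actg2-low cells; male cells gave 75 higher between ages and 20 higher and 81 lower than in Actg2-low cells; cells thinned to 4000 UMIs gave 65 and 64 between ages and 46 higher. The cause of other changes was not tested. No paired analysis was possible because each age had 1 library, and no replicate could be left out. Depth limits genes of a few UMIs: 3 counts are 6.55 CPM in adult and 16.9 CPM in aged members.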
